A study of Canis lupus familiaris with 5 samples.

Results

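Among the induced pluripotent stem cells (iPSCs) made from the skin fibroblasts of 1 adult dog, clone 2 was compared with clones 1 and 3. It is 1 of the 5 RNA libraries of the series, and 238 of the 32220 gene models set it apart by the rule given below. The iPSC group held clone 1 at passage 9 and clones 2 and 3 at passage 8, and the other groups were 1 library of fibroblasts at passage 1 and 1 library of induced neural stem cell-like cells (iNSLCs) at passage 2. iNSLCs are the colony-forming cells that appeared after the fibroblasts had received episomal vectors carrying reprogramming factors, and iPSC colonies were picked after such cells had been moved to a medium for embryonic stem cells. Each iPSC library is 1 clone, all libraries come from the same animal, and the sources used here do not say which colony gave rise to which clone. The iNSLC library and iPSC 1 carry the same number, 1, in their titles. With 1 library on the side of iPSC 2, the values below have no replicate check.

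Clonal lines of pluripotent cells start from single colonies, and lines from the same donor are known to differ in which genes they express. Reprogramming has to close the program of the starting cell and open that of the pluripotent cell, and a clone can keep traces of an earlier state or express genes of neither. For this reason each gene that set iPSC 2 apart was looked up in the iNSLC and fibroblast libraries, whose levels the rule did not use.

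The files identify genes by Ensembl IDs of dog gene models (ENSCAFG numbers) and do not pair them with symbols, and the name table at hand matched 0 of 32220 IDs. What the proteins of these genes do is therefore not described, and the pluripotency, neural, fibroblast and other marker lists could not be used to check the labelled cell types. Most genes below are given by their position in the dog genome build CanFam3.1, and 2 IDs are printed in each direction. Levels are CPM, the counts of a gene relative to the library total, with totals scaled by TMM factors, which correct for differences in RNA composition. The iPSC libraries held 29564180, 20021139 and 34317091 counts in the order of the clones, the iNSLC library 11699186 and the fibroblast library 33280017. A level of 3 counts, taken as the floor, corresponded to between 0.0810 CPM and 0.262 CPM. iPSC 2 was the shallowest of the clones and had the largest TMM factor, at 1.12 against 1.09 in iPSC 1 and 1.08 in iPSC 3.

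The clones were first checked for whether iPSC 2 was the one farthest from the others. Over 9057 genes with a mean of at least 10 CPM in the clones, the rank correlation (Spearman's rho, with genes as points that are not independent) was 0.921 between iPSC 1 and 3, 0.906 between iPSC 1 and 2, and 0.864 between iPSC 2 and 3. The SD of the log2 ratio was 0.579 for iPSC 1 and 3, 0.698 for iPSC 1 and 2, and 0.829 for iPSC 2 and 3. The interquartile range of that ratio, which large differences do not move, had another order, at 0.495 for iPSC 1 and 2, 0.754 for iPSC 1 and 3, and 0.842 for iPSC 2 and 3. By all 3 measures iPSC 2 and 3 were the most distant pair, while the clone nearest to iPSC 1 was iPSC 3 by the correlation and the SD and iPSC 2 by the interquartile range. For each gene, the odd clone was defined as the one on the far side of the larger of the gaps between neighbouring levels. Counted over all 9057 genes, this was iPSC 3 in 46.0%, iPSC 2 in 31.8% and iPSC 1 in 22.2%. Among 986 genes with a gap of at least 2-fold, iPSC 2 was odd in 53.5% and iPSC 3 in 40.3%. Among 171 genes with a gap of at least 4-fold, iPSC 2 was odd in 152, iPSC 3 in 18 and iPSC 1 in 1. The name of most divergent clone therefore held for large differences, while small ones more often set iPSC 3 apart.

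Genes were taken as apart in iPSC 2 by a rule of level and fold. A higher gene had at least 10 CPM in iPSC 2 and at least 4 times the level of the higher of the other clones, and a lower gene had at least 10 CPM in both other clones and lay at least 4 times below the lower of them in iPSC 2. The rule found 170 higher genes, 1.88% of the 9021 genes with at least 10 CPM in iPSC 2. It found 68 lower genes, 0.814% of the 8349 genes with at least 10 CPM in iPSC 1 and 3. Together these were 238 genes, or 2.55% of 9327. The same rule applied to iPSC 1 gave 3 higher genes (0.0333%) and 0 lower genes, together 0.0329% of 9131. For iPSC 3 it gave 1 higher gene (0.0116%) and 19 lower genes (0.223%), together 0.219% of 9116. Setting iPSC 2 against a single clone loosens the rule, and left 262 higher genes without iPSC 1 and 114 lower genes without iPSC 3. The rule uses no test of this contrast, because iPSC 2 had been singled out for its distance in these same counts. Fits of the contrast are given below as alternatives and are a description only.

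**Figure D1:**
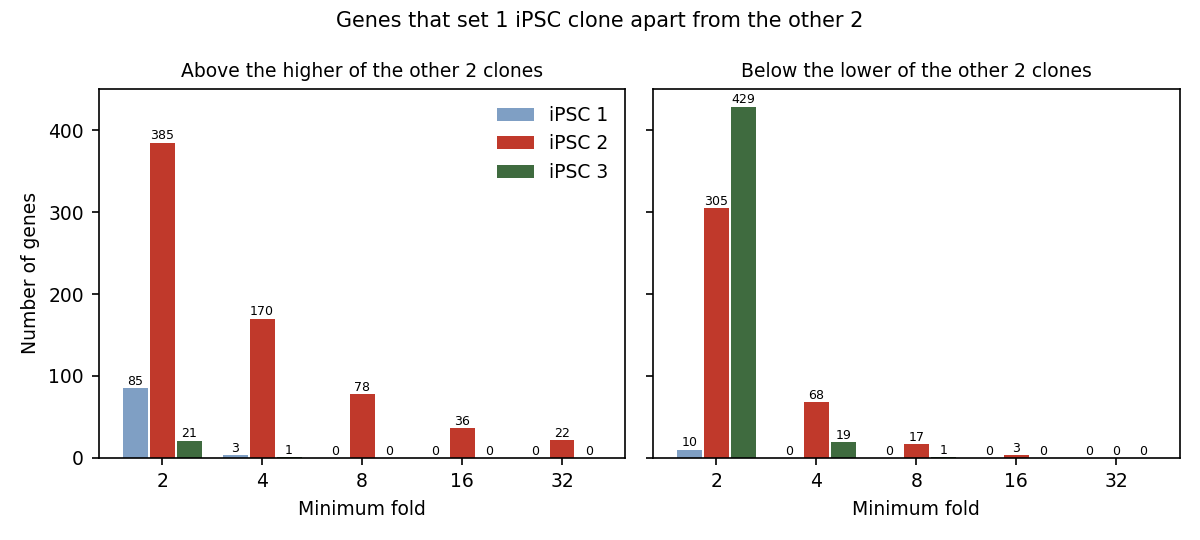
Number of genes (y axis) that set each iPSC clone apart from the other 2 at minimum folds of 2, 4, 8, 16 and 32 (x axis), with 1 bar per clone, above the higher of the other clones on the left and below the lower of them on the right. At a fold of 4, iPSC 2 has 170 and 68 genes, and at a fold of 2 iPSC 3 has 429 lower genes against 305 in iPSC 2.

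By the rule, which asks for 10 CPM in 1 library for higher genes and in 2 for lower genes, higher genes were the more numerous at every fold. At 2-fold 385 were higher and 305 lower in iPSC 2, at 8-fold 78 and 17, at 16-fold 36 and 3, and at 32-fold 22 and 0. With the same filter for both directions, a mean of 10 CPM in the clones, the order depended on the size of the gap. iPSC 2 was then the odd clone on the high side in 237 genes and on the low side in 291 at a gap of at least 2-fold, in 90 and 62 at 4-fold, and in 39 and 17 at 8-fold. The bars by clone show a different shape for iPSC 3, which had 21 higher and 429 lower genes at 2-fold and 0 higher and 1 lower gene at 8-fold. The folds of the 170 higher genes had a median of 7.56 and those of the 68 lower genes a median of 5.38. Around the threshold, the smallest fold inside was 4.02 and the largest outside 3.96 for higher genes, and 4.01 and 3.95 for lower genes.

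The distance of the other clones from each other gives the scale of clone-to-clone spread. iPSC 1 and 3 lay within 2-fold of each other for 145 of the 170 higher genes and for 61 of the 68 lower genes, where 91.8% of all 9057 genes did. The median distance was 0.44 on the log2 scale for higher genes, 0.38 for lower genes and 0.36 for all genes. Of the higher genes, iPSC 1 was above iPSC 3 in 87, and of the lower genes in 34. Among the genes past the rule, which asks for distance from both, neither of the other clones was thus regularly the nearer one. Over all 9057 genes iPSC 1 was nearer to iPSC 2 than iPSC 3 was, by the measures given above. As an alternative, edgeR's quasi-likelihood test was fitted with 1 residual degree of freedom, from iPSC 1 and 3 alone, and with the lone libraries assumed to vary like those clones. At an adjusted p under 0.05 it called 604 genes higher (3.46% of 17479) and 274 lower (1.57%). DESeq2 called 290 higher (2.06% of 14090) and 195 lower (1.38%). These calls use the counts that singled out iPSC 2, so they are a description and support nothing about the genes picked by the rule.

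The 4 genes at the head of the ranking show both directions. ENSCAFG00000009749 (chromosome 25, 35194748 to 35199792, 5 exons) had 179 CPM in iPSC 2, from 4019 counts. It had 0.124 CPM (4 counts) in iPSC 1, 0.135 CPM (5 counts) in iPSC 3, 0.523 CPM (6 counts) in iNSLCs and 0 counts in fibroblasts, which at a floor of 3 counts allows up to 0.117 CPM. iPSC 2 was thus the sole library in which this gene was on, with a ratio to iPSC 3 of 1324 and a counting interval at 95% from 567 to 4081. ENSCAFG00000013953 (chromosome 8, 22004789 to 22007344, 3 exons) followed the same pattern. It had 122 CPM in iPSC 2 (2738 counts), against 6 counts in iPSC 1, 2 in iPSC 3, 0 in iNSLCs and 2 in fibroblasts, and the ratio to iPSC 1 was 657 with a counting interval from 301 to 1791.

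Of the lower genes, ENSCAFG00000008760 (chromosome 27, 5588152 to 5592060, 7 exons) had 0.356 CPM in iPSC 2, from 8 counts. It had 10.3 CPM in iPSC 1, 41.0 CPM in iPSC 3, 0.872 CPM (10 counts) in iNSLCs, while fibroblasts had 0 counts. It was thus on in 2 clones only, and these differed by 1.99 on the log2 scale. The ratio of iPSC 1 to iPSC 2 was 29.0, with a counting interval from 14.6 to 67.7. ENSCAFG00000000868 (chromosome 1, 55826089 to 55986101, 27 exons) had 1.11 CPM in iPSC 2 (25 counts), 24.9 CPM in iPSC 1 and 19.5 CPM in iPSC 3. It was on outside the clones as well, with 125 CPM in iNSLCs and 21.7 CPM in fibroblasts. iPSC 2 was the lowest of the 5 libraries, 17.5 times below iPSC 3 (counting interval 11.8 to 27.3). Exons of this model overlap those of another model, so they can share reads. Counting intervals cover counting error only. They would be too narrow if read mates had been counted singly, and of the gene counts between 1 and 10, 61.6% were even in iPSC 2, 59.6% in iPSC 1, 60.8% in iPSC 3 and 74.0% in iNSLCs.

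How many higher genes were silent in the other clones depended on the cut-off. Of the 170 higher genes, 2 had fewer than 3 counts in both other clones and 22 (12.9%) had under 1 CPM in both. By contrast, 21 had at least 10 CPM in both and differed by degree. The median level of the higher genes was 26.5 CPM in iPSC 2, ranging from 10.2 to 928 CPM, against 2.66 CPM in iPSC 1 and 2.80 CPM in iPSC 3. Of the 68 lower genes, 0 had fewer than 3 counts in iPSC 2, 2 had under 1 CPM there and 18 still had at least 10 CPM. Their median was 5.36 CPM in iPSC 2, 35.1 CPM in iPSC 1 and 33.0 CPM in iPSC 3. Summed, the higher genes took 11343 CPM in iPSC 2, 1379.8 CPM in iPSC 1 and 1234 CPM in iPSC 3, and the lower genes 760.3, 5573 and 4957 CPM. In iNSLCs the higher genes summed to 8805 CPM and the lower genes to 8635 CPM, and in fibroblasts to 11226 and 25326 CPM. Sums rest on few genes: 3 of the higher genes held 7757 CPM in fibroblasts, where the median of the 170 was 0.742 CPM.

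**Figure D2:**
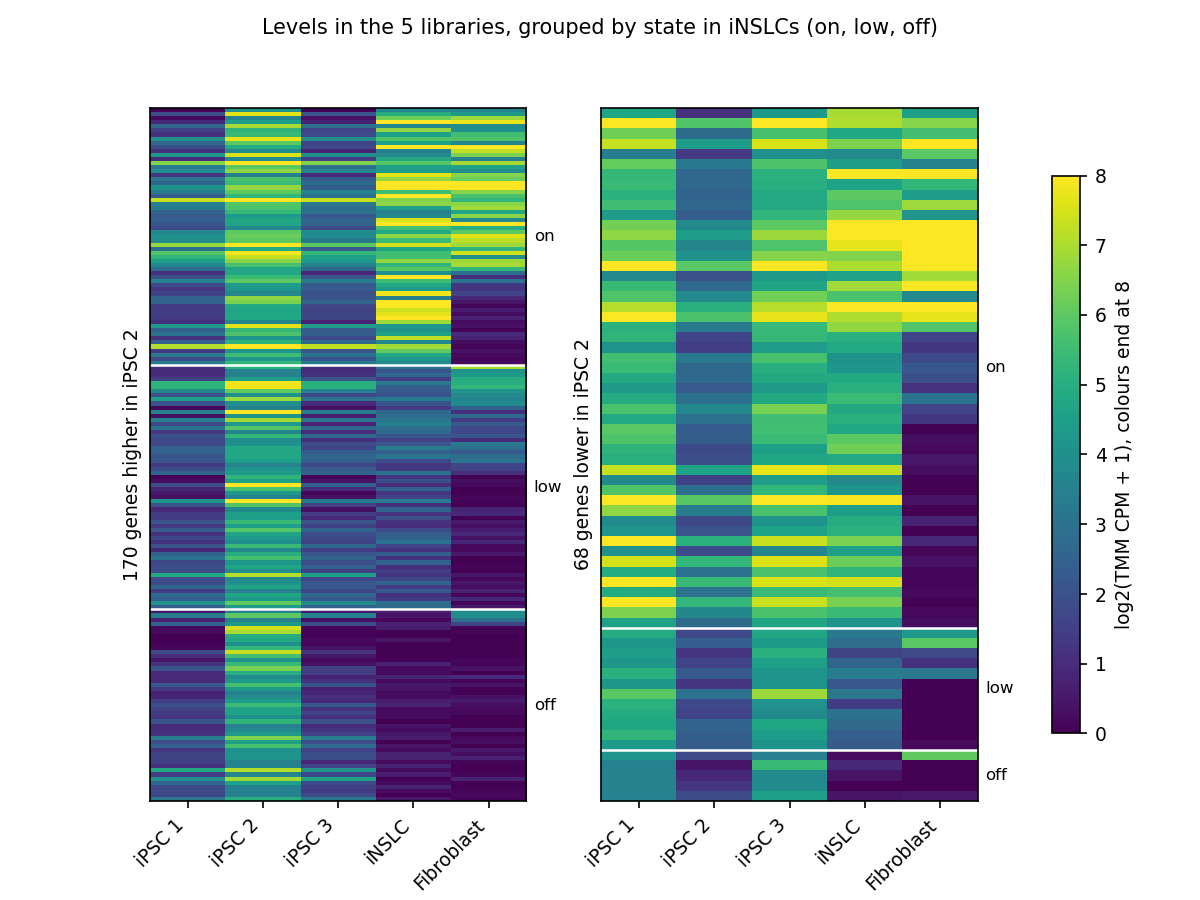
Levels of the 170 higher genes (left) and 68 lower genes (right) in the 5 libraries, as log2(TMM CPM + 1) in colours that end at 8, with 1 row per gene and white lines between genes on, low and off in iNSLCs. The median of the higher genes is 26.5 CPM in iPSC 2 and 2.66 and 2.80 CPM in iPSC 1 and 3, and the dark fibroblast column holds the 93 higher and 31 lower genes that were off there.

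Whether these genes were on or off at the earlier stages was read from the iNSLC and fibroblast libraries, with on meaning at least 10 CPM, off under 1 CPM and low the range between. Of the 170 higher genes, 63 (37.1%) were on in iNSLCs, 60 were low and 47 (27.6%) were off. In fibroblasts 52 (30.6%) were on, 25 were low and 93 (54.7%) were off. Of all 9021 genes with at least 10 CPM in iPSC 2, 88.5% were on and 1.12% off in iNSLCs, and 85.8% were on and 4.76% off in fibroblasts. The rule makes the higher genes low in iPSC 1 and 3, and what part this has in their lower shares was not tested. Read together, the libraries gave 43 genes off in both (25.3%, against 0.887% of the 9021) and 40 on in both (23.5%, against 81.6%). A further 33 genes (19.4%, against 1.88%) were low in iNSLCs and off in fibroblasts, 17 (10%, against 1.98%) were on in iNSLCs and off in fibroblasts, and 10 (5.88%, against 4.09%) were low in iNSLCs and on in fibroblasts.

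Of the 80 genes that had at least 10 CPM in iPSC 2 and were off in both earlier stages, 43 were thus among the higher genes of iPSC 2. Median levels of these 43 were 22.8 CPM in iPSC 2, 1.64 CPM in iPSC 1, 1.62 CPM in iPSC 3, 0.174 CPM in iNSLCs and 0.0781 CPM in fibroblasts. They had a median fold of 11.4 over the nearer clone. The share off in both was 14.1% of the 92 genes at 4- to 8-fold, 40.5% of the 42 genes at 8- to 16-fold and 36.1% of the 36 genes at 16-fold or more. Over the whole group, 127 of the 170 higher genes had their highest level of all 5 libraries in iPSC 2, 90 of them by at least 4-fold. The rule puts iPSC 2 at least 4-fold above iPSC 1 and 3, so these counts are fixed in part. No share over all genes was taken for them or for the counts between libraries below.

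For the 40 genes on in both earlier stages, medians were 52.0 CPM in iPSC 2, 47.6 CPM in iNSLCs and 77.4 CPM in fibroblasts, against 6.40 CPM in iPSC 1 and 6.09 CPM in iPSC 3, an order that the choice of these genes fixes in part. By the rule iPSC 1 and 3 lie at least 4-fold below iPSC 2 in all 170 higher genes. In 26 of them they lay at least 4-fold below iNSLCs and fibroblasts as well. In these the medians were 28.6 CPM in iPSC 2, 66.7 CPM in iNSLCs and 80.4 CPM in fibroblasts, against 2.26 and 2.36 CPM in iPSC 1 and 3. The iNSLC level was above that of iPSC 2 in 16 of them and the fibroblast level in 19. A gene model on chromosome X (122006842 to 122034958), given like the other examples after its values were seen, had 16.6 CPM in iPSC 2, 12.2 CPM in iNSLCs and 11.2 CPM in fibroblasts. It had 0 counts in iPSC 1 and 2 counts in iPSC 3, and its exons overlap another model.

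The 17 higher genes on in iNSLCs and off in fibroblasts had medians of 64.9 CPM in iNSLCs, 34.8 CPM in iPSC 2, 4.39 CPM in iPSC 1 and 3.24 CPM in iPSC 3, with 0.234 CPM in fibroblasts. They were split after their values were seen, at an iNSLC level of 3 times that of iPSC 2. The order of these 2 libraries within each part follows in part from the split. In 8 models of 1 to 3 exons, iNSLCs were 3.6 to 11.7 times above iPSC 2, with medians of 184 CPM in iNSLCs, 25.5 CPM in iPSC 2, 1.61 CPM in iPSC 1 and 2.21 CPM in iPSC 3. Of these 8, 5 models on 4 chromosomes had 1374 to 1389 exon bases, and whether they are copies that share reads was not tested. In the other 9 models, of 4 to 67 exons, medians were 18.1 CPM in iNSLCs and 44.5 CPM in iPSC 2, and iNSLCs were below iPSC 2 in 8. Among them was a model on chromosome 29 (39333122 to 39388362) with 99.9 CPM in iPSC 2, 10.1 CPM in iNSLCs, 4.79 and 3.24 CPM in iPSC 1 and 3 and 0.859 CPM in fibroblasts. The opposite order was seen in a model on chromosome 20 (44466966 to 44472365), which had 129.8 CPM in fibroblasts, 33.5 CPM in iPSC 2 and 6.89 CPM in iNSLCs, and 1.08 and 1.03 CPM in iPSC 1 and 3, and whose exons overlap another model. A model on chromosome 1 (54183495 to 54192331) had 36.4 CPM in iPSC 2, 16 counts in iNSLCs, 2 and 4 counts in iPSC 1 and 3 and 0 in fibroblasts. Over all 170 higher genes, the iNSLC level lay within 4-fold of iPSC 2 in 50 and the fibroblast level in 36. Over all 9057 genes, iPSC 2 was farther from the earlier stages than iPSC 1 and about as far as iPSC 3. Spearman's rho with iNSLCs was 0.702 for iPSC 2, 0.760 for iPSC 1 and 0.708 for iPSC 3, and with fibroblasts it was 0.574, 0.619 and 0.558.

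**Figure D3:**
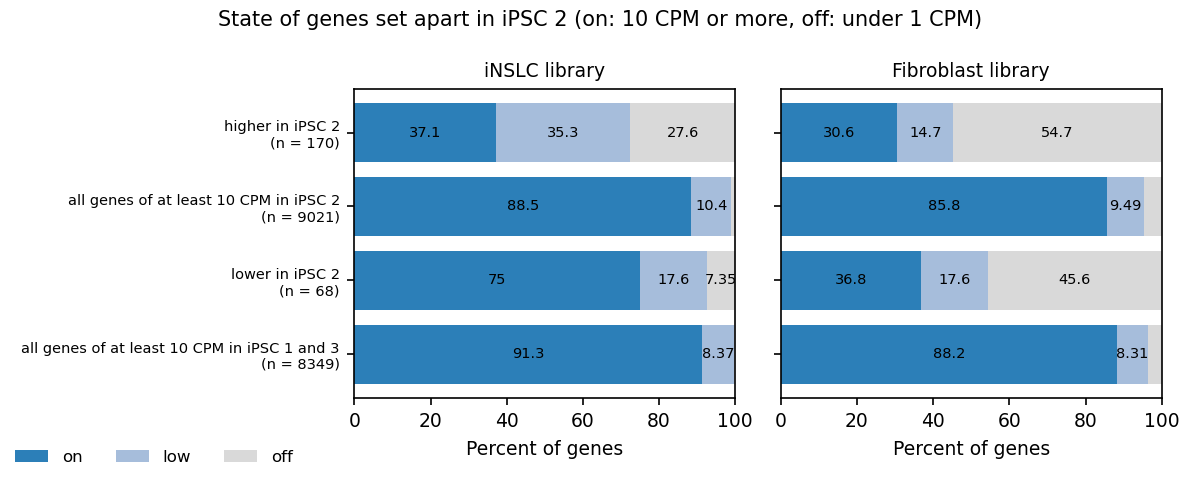
Percent of genes (x axis) that were on, low or off in the iNSLC library (left) and the fibroblast library (right), for the genes higher and lower in iPSC 2 and for all genes that could have passed each rule. The higher genes are on in 37.1% and 30.6%, against 88.5% and 85.8% of all genes with at least 10 CPM in iPSC 2, and the lower genes are on in 75% and 36.8%.

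Most lower genes were on in iNSLCs, but at a minimum of 10 CPM a smaller share than of all genes that could pass. Of the 68, 51 (75%) were on there, 12 were low and 5 (7.35%) off. In fibroblasts 25 (36.8%) were on, 12 were low and 31 (45.6%) were off. Of all 8349 genes with at least 10 CPM in iPSC 1 and 3, 91.3% were on and 0.299% off in iNSLCs. In fibroblasts 88.2% of the 8349 were on and 3.50% off. The share of lower genes on in iNSLCs was 87.9% at 2-fold, where the same 8349 genes could pass. At a minimum of 50 CPM it was 95.2% of 21 lower genes, and no share over all genes was taken there. The sets were not matched for level. For 50 of the 68 genes the iNSLC level lay within 4-fold of the nearer of iPSC 1 and 3.

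Of the lower genes, 22 (32.4%, against 84.5% of the 8349) were on in both earlier stages, and 20 (29.4%, against 2.10%) were on in iNSLCs and off in fibroblasts. The 20 had medians of 54.6 and 44.7 CPM in iPSC 1 and 3, 39.85 CPM in iNSLCs, 6.61 CPM in iPSC 2 and 0.156 CPM in fibroblasts. The thresholds by which these genes were chosen fix most of that order. One of them, on chromosome 5 (4457959 to 4480435), had 61.4 CPM in iPSC 1, 46.4 CPM in iPSC 3, 26.1 CPM in iNSLCs, 4.05 CPM in iPSC 2 and 0 counts in fibroblasts. The 22 genes on in both had medians of 105 CPM in iNSLCs, 115 CPM in fibroblasts, 56.3 and 51.5 CPM in iPSC 1 and 3 and 8.45 CPM in iPSC 2. In 27 of the 68 lower genes iPSC 2 had the lowest level of all libraries, in 17 of them by at least 4-fold. These counts are fixed in part, since the rule puts iPSC 2 at least 4-fold below iPSC 1 and 3. In 40 of the 68 the fibroblast level was at or below that of iPSC 2, and in 6 the iNSLC level was. Of the 19 lower genes of iPSC 3, 15 (78.9%) were on in fibroblasts and 0 were off. These shares lie near the 88.2% on and 3.50% off of the 8349 genes, which are those that could pass for iPSC 2. The contrast with the 68 genes rests on few genes and was not tested.

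On the CPM scale, which does not correct for gene length, 26 higher genes reached at least 100 CPM in iPSC 2. The 3 highest were chosen after their values were seen. A model on chromosome 12 (861374 to 866099) had 928 CPM in iPSC 2, 134 CPM in iPSC 1, 148 CPM in iPSC 3 and 118 CPM in iNSLCs, while fibroblasts had 2 counts. A model on chromosome 16 (8508180 to 8528497) had 918 CPM in iPSC 2 and 159.6 and 156 CPM in iPSC 1 and 3. It was lower at the earlier stages, with 88.1 CPM in iNSLCs and 37.5 CPM in fibroblasts. The next, on chromosome 28 (33763600 to 33788282), had 692 CPM in iPSC 2 and 90.8 and 86.7 CPM in iPSC 1 and 3. It was on at both earlier stages, with 57.55 CPM in iNSLCs and 120.6 CPM in fibroblasts, the latter above iPSC 1 and 3. In all 3 the other clones differed by less than the gap to iPSC 2.

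Among the lower genes, 11 had at least 100 CPM in both other clones. The model on chromosome 8 (1162150 to 1228970) had 801 CPM in iPSC 1, 835 CPM in iPSC 3 and 55.5 CPM in iPSC 2. Its level was 130 CPM in iNSLCs and 92.2 CPM in fibroblasts, so that iPSC 2 was the lowest of the 5 libraries. A model on chromosome 29 (27055752 to 27105745) had 346 and 387 CPM in iPSC 1 and 3, 239.7 CPM in iNSLCs, 60.0 CPM in iPSC 2 and 8 counts in fibroblasts. Of both directions together, 0 of the 238 genes lay on the mitochondrial genome.

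Of the 39 nuclear chromosomes, all but chromosome 37 held some of the 238 genes, and some of the genes were neighbours. How many runs of neighbours scattered genes would give was not tested. Among the genes that could pass the rule, 16 runs of at least 2 neighbours were apart in the same direction, 3 of them held at least 3 genes and 0 held at least 4. The first run of 3 lay on chromosome 12 (2404098 to 2441456). Its models had 62.7, 41.5 and 16.7 CPM in iPSC 2, against 12.2, 1.11 and 0.247 CPM in iPSC 1 and 13.9, 2.43 and 0.513 CPM in iPSC 3. All 3 were also expressed earlier, with 28.5, 22.9 and 6.37 CPM in iNSLCs and 62.4, 45.5 and 5.66 CPM in fibroblasts. The folds over the nearer clone rose along the run, from 4.52 to 17.1 and 32.5.

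The second run lay on chromosome 5 (47873780 to 48256860). Its first models, of 2 exons and 1 exon, had 38.7 and 30.3 CPM in iPSC 2 (869 and 682 counts), between 0 and 12 counts in iPSC 1 and 3, and 0 counts in both earlier libraries. The third, a long model of 84 exons, had 57.4 CPM in iPSC 2, 7.36 and 5.46 CPM in iPSC 1 and 3, 6.63 CPM in iNSLCs and 2.42 CPM in fibroblasts. The remaining run, on chromosome 36 (13910306 to 14070685), was lower in iPSC 2. Its models had 6.85, 1.42 and 38.0 CPM in iPSC 2, against 61.0, 17.9 and 411 CPM in iPSC 1 and 112, 16.6 and 159.7 CPM in iPSC 3. The iNSLCs had 7.94, 3.49 and 80.7 CPM, below both other clones and above iPSC 2, and the fibroblasts had 0, 0 and 1 count. The first model lies on the plus strand and its bounds overlap those of both others, on the minus strand, although no exon bases are shared.

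**Figure D4:**
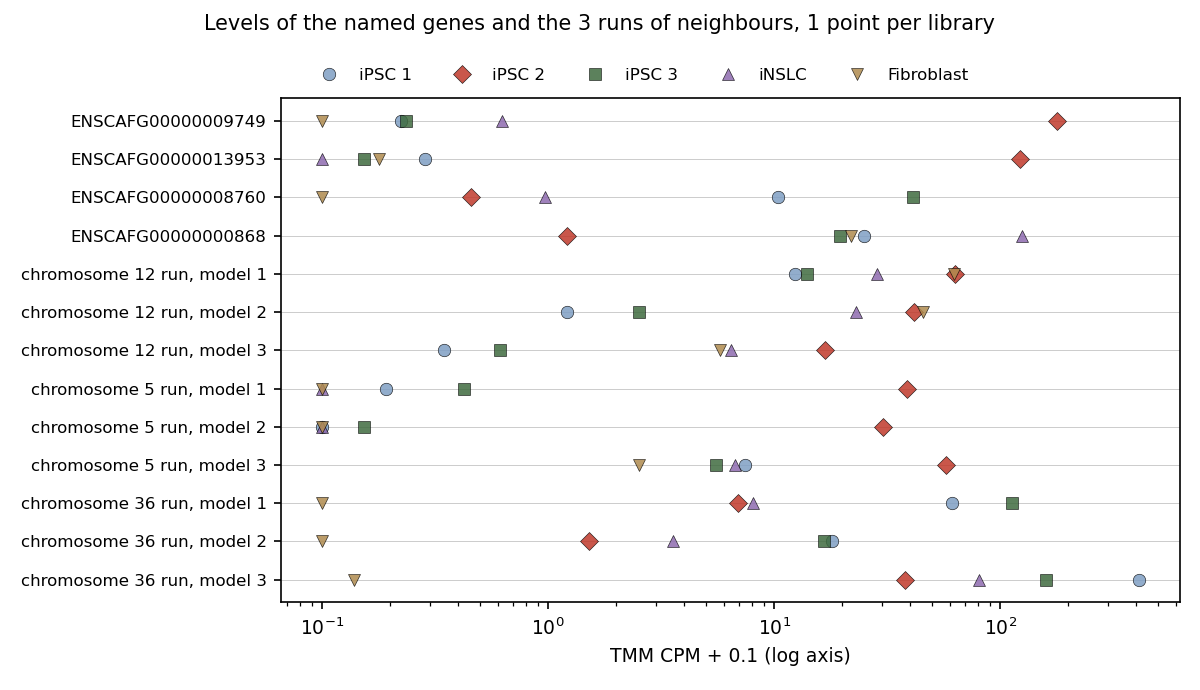
Levels of the 4 named genes and of the 9 models in the runs on chromosomes 12, 5 and 36, as TMM CPM + 0.1 on a log axis (x axis), with 1 point per library and no replicates. ENSCAFG00000009749 lies at 179 CPM in iPSC 2 and under 1 CPM in the 4 other libraries, while the models of the chromosome 36 run are lower in iPSC 2 than in iPSC 1 and 3.

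By chromosome, the share of genes past the rule ranged from 0 of 106 genes that could pass on chromosome 37 to 5.88% on chromosome 29 (3 higher and 3 lower of 102), against 2.55% over all. Chromosome 5, which held 1 of the runs, had 14 higher and 5 lower of 469 genes (4.05%), and chromosome 25, with the first named gene, had 9 and 1 of 178 (5.62%). Chromosome medians are taken over a whole culture and can miss changes carried by part of its cells. The paper counted chromosomes in canine iPSC clones 1 to 3 and found the normal number in only part of the cells. Over 13366 genes with a mean of at least 1 CPM in the clones, the median log2 ratio of iPSC 2 to the mean of iPSC 1 and 3 deviated from that of all genes by between -0.08 (chromosome 17) and 0.12 (chromosome 28) on the 39 nuclear chromosomes. The same deviations between iPSC 1 and 3 ranged from -0.22 to 0.34. Chromosome by chromosome, iPSC 2 lay farther from the mean of iPSC 1 and 3 than either of these did on 12 of the 39, chromosomes 17 and 28 included. The value of chromosome 28 rested on iPSC 3, since without it the deviation was 0.04, and without iPSC 1 it was 0.16.

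**Figure D5:**
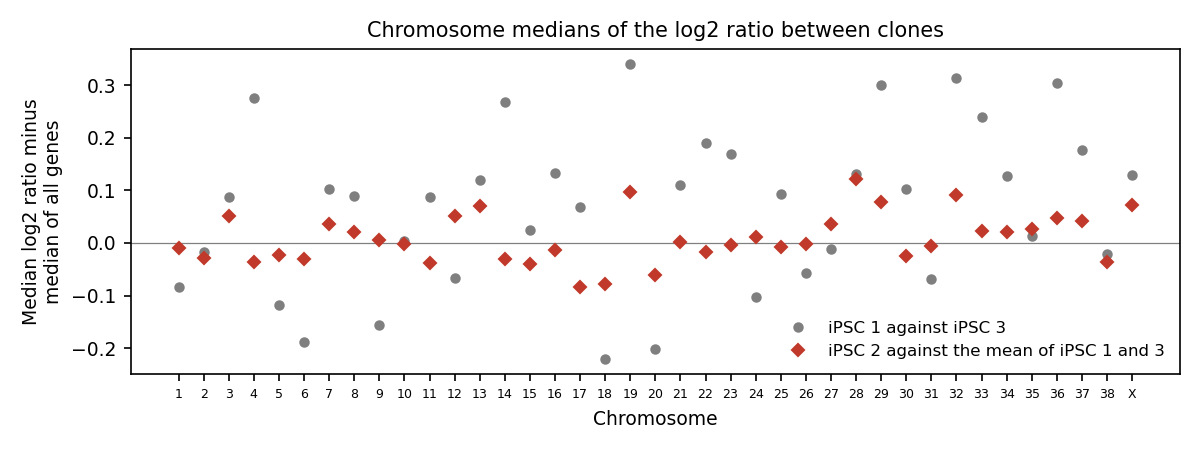
Median log2 ratio of each chromosome minus the median of all genes (y axis, log2) by chromosome (x axis), with diamonds for iPSC 2 against the mean of iPSC 1 and 3 and circles for iPSC 1 against iPSC 3. Diamonds lie between -0.08 and 0.12 and circles between -0.22 and 0.34.

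The gene models were close to all others in their median build. Higher genes had a median of 10 exons and 2853.5 exon bases, against 11 exons and 2779 exon bases for all genes with at least 10 CPM in iPSC 2. Lower genes had 10.5 exons and 3015 exon bases, against 2833 exon bases for all genes with at least 10 CPM in iPSC 1 and 3. Models of 1 exon made up 3.53% of higher genes, against 3.68% of all with at least 10 CPM in iPSC 2. They made up 2.94% of lower genes, against 3.34% of all with at least 10 CPM in iPSC 1 and 3. Exons overlapped another model in 12 of the 170 higher genes, against 11.4% of all genes with at least 10 CPM in iPSC 2. Of the 68 lower genes 3 did, and no share was taken over the genes that could pass as lower.

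Transcripts of the mitochondrial genome took 9.99% of the counts in iPSC 2 (exact interval 9.98 to 10.01%), the highest of the 5 libraries, against 6.05% in iPSC 1, 6.79% in iPSC 3, 2.48% in iNSLCs and 4.33% in fibroblasts. The 3.57 percentage points between iPSC 2 and the mean of the other clones exceeded the 0.731 between those. All 15 mitochondrial gene models of at least 200 bases were above both other clones, with a median log2 ratio of 0.67 and a range from 0.25 to 1.19, so none reached the 4-fold of the rule. With mitochondrial models left out of the totals, 172 genes were higher and 71 lower.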

How the data were processed

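RNA from 5 cultures of 1 dog was sequenced. The authors deposited counts, as whole numbers for each gene and without scaling. The submitters' notes name STAR 2.5.3a, build CanFam3.1, featureCounts 1.5.2 and Trim Galore 0.4.0, and the sources used here state neither strand nor multi-mapping settings. The table of the series and those of the libraries had 0 differing values.

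TMM factors came from edgeR 4.0.16 (R 4.3.3) on genes kept by filterByExpr, with full totals. Levels under 3 counts were set to 3 counts before folds were taken. Log2 ratios of chromosomes used a prior count of 2. The first 2 IDs by fold were named in each direction, since no ID had a symbol, and other genes were given by position. edgeR's quasi-likelihood test and DESeq2 1.42.0, with Benjamini-Hochberg adjustment, were alternatives. Thresholds, scalings and the clones included were varied, and levels per length and models without overlap were added after seeing the data. The code of the rule and of the edgeR fit was run on simulated counts. These varied less than the clones here and held changes well past the threshold, so the run does not check the calls made here. The clone, the rule and the lists were chosen with earlier results of these data known. The mitochondrial share carries an exact 95% Clopper-Pearson interval over reads, and that and the floor include no error but that of counting. Shares of genes have no interval, since genes are not independent. p-values measure spread between clones of 1 animal, not between animals.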

Additional observations from a re-analysis of the deposited data

How the results depend on the processing

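No paired analysis was possible because iNSLCs and fibroblasts had 1 library each. The 170 higher and 68 lower genes became 50 and 21 at a minimum of 50 CPM, 385 and 305 at 2-fold, 78 and 17 at 8-fold, 604 and 274 with edgeR and 290 and 195 with DESeq2. Without iPSC 1 or iPSC 3, higher genes numbered 204 to 262 and lower genes 101 to 114. Higher genes made up 71.4% of the genes apart with TMM, 74% with library size, 73.2% with DESeq2 size factors, 75.2% with upper quartile scaling and 55.8% at 2-fold.

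Shares of higher genes on in iNSLCs, on in fibroblasts and off in both were 56, 54 and 14% at 50 CPM, 47.3, 41.3 and 16.1% at 2-fold, and 29.5, 20.5 and 38.5% at 8-fold. Leaving out iPSC 1 or iPSC 3 gave 37.3 to 48.9%, 29.9 to 42.4% and 16.8 to 25%. Shares of lower genes on in iNSLCs and fibroblasts were 95.2 and 52.4% at 50 CPM, 87.9 and 62.6% at 2-fold, and 52.9 and 23.5% at 8-fold. With on set at 5 CPM and off under 3 counts, 47.1% of higher genes were on in iNSLCs and 9.41% off in both. With on set at 1 CPM, 72.4 and 45.3% of higher and 92.6 and 54.4% of lower genes were on in iNSLCs and fibroblasts. Per length (on at 5 RPKM, added after seeing the data), 28.2% of higher genes were on in iNSLCs. The fold does not change which genes could pass, so at 2- and 8-fold the shares over all genes stay as given above. For higher genes these were 88.5% on in iNSLCs, 85.8% on in fibroblasts and 0.887% off in both. For lower genes they were 91.3% on in iNSLCs and 88.2% on in fibroblasts. No share over all genes was taken at the other settings, so those shares have none to be read against.

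Chromosome 17 deviated by -0.069 at a minimum of 10 CPM and by -0.084 to -0.064 with iPSC 1 or iPSC 3 left out. Runs numbered 3 at a minimum of 3 genes, and the mitochondrial share was 9.97% for models of at least 200 bases. The cause of these changes was not tested beyond each setting's own construction.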
